A study of Mus musculus with 12 samples.

Results

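*Tet1*, *Tet2*, *Tet3*, *Dnmt1*, *Dnmt3a*, *Dnmt3b*, *Uhrf1*, and *Tdg* write, copy, and remove methyl groups on cytosine in DNA. These 8 genes were chosen by name from the 26608 genes listed in the count tables, by a rule that used no measured value although earlier results of these data were known, and all 8 passed the filter on low counts that left 16035 genes for testing. RNA sequencing had been done on CD4+ YFP(FOXP3)- T cells sorted from spleen pooled with cervical and inguinal lymph nodes, with 1 library per mouse. All mice were 14 weeks old and all carried Foxp3-Cre, which is linked to YFP and expressed from *Foxp3*, the gene of the lineage factor of regulatory T (Treg) cells. The 4 WT mice were Foxp3Cre WT, and the 4 DKO-moderate and 4 DKO-severe mice were Foxp3-Cre Tet2/3 fl/fl, divided by the total number of leukocytes in spleen and lymph nodes. The sorted cells lacked YFP, and *Tet2* and *Tet3* are deleted only in cells that expressed Foxp3-Cre at some time. The DKO samples can therefore mix former Treg cells lacking both genes with cells in which they are intact. The authors write that Foxp3-Cre has been considered leaky, so some cells that were never Treg cells may lack the genes too. The question addressed here is how far the transcripts of the methylation machinery differed in these YFP-negative cells among WT, DKO-moderate, and DKO-severe mice.

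DNMT3A and DNMT3B place methyl groups on unmethylated CpG sites, and DNMT1 copies them onto the daughter strand after replication. UHRF1 binds hemimethylated CpG sites behind the replication fork and recruits DNMT1. TET1, TET2, and TET3 are dioxygenases that oxidize 5-methylcytosine to 5-hydroxymethylcytosine and further to 5-formylcytosine and 5-carboxylcytosine, and TDG is the glycosylase that cuts out the last pair of these bases for replacement by base excision repair. In Treg cells, TET2 and TET3 keep regulatory elements of the *Foxp3* locus demethylated.

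In DKO-severe cells, *Tet1*, *Tet3*, *Dnmt3a*, and *Dnmt3b* fell and *Uhrf1* rose against WT, whereas *Tet2*, *Dnmt1*, and *Tdg* did not pass the test. Thus 5 of the 8 genes passed (adjusted p under 0.05, edgeR), beside 52.6% of all genes tested in this comparison. The 1 rise stands beside 26.6% of all genes called higher and the 4 falls beside 25.9% called lower. In DKO-moderate cells, *Tet1* fell and *Uhrf1* rose against WT, 2 of 8 genes beside 17.1% of all genes tested (12.3% higher, 4.74% lower). Between DKO-severe and DKO-moderate, *Tet1* and *Dnmt3a* were lower and *Uhrf1* was higher in DKO-severe, 3 of 8 beside 20.1% of all genes (9.41% higher, 10.7% lower). With only 8 genes these counts are not far from the backgrounds and are no result about the genes as a group. Both DKO comparisons use the same 4 WT libraries. The median log2 fold change of the 8 genes was -0.41, -0.20, and -0.08 in the 3 comparisons in the order given, beside -0.01, 0.00, and -0.03 for all genes tested.

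The 12 libraries held 29254260 to 42133536 reads on genes, and levels are given as CPM, the count of a gene relative to all reads on genes of its library after TMM scaling. The CD4 T cell markers *Cd3e* and *Cd4* were at 353 to 517 and 864 to 1370 CPM in all libraries. Of the 8 CD4 T cell genes tested, 2 were higher (*Cd3e* and *Cd28*) and 3 lower (*Cd5*, *Cd2*, and *Lck*, at -1.10, -0.69, and -0.48 on the log2 scale) in DKO-severe against WT by edgeR. Of all genes, 26.6% were higher and 25.9% lower in this comparison. Neutrophil markers differed by library. The summed level of the list of 10 was 0 to 1.90 CPM in WT, 0.159 to 8.48 CPM in DKO-moderate, and 2050, 756, 22.1, and 9.60 CPM in DKO-severe 1 to 4, and the defining marker *Ly6g* was at 0 in 4 of 4 WT and 2 of 4 DKO-moderate libraries. In DKO-severe against WT, 10 of these 10 genes were called higher by edgeR, beside 26.6% of all genes. The list of 7 B cell markers summed to 6.81 to 15.1 CPM in WT 1, 2, and 4 and 207 CPM in WT 3, to 19.8 to 47.4 CPM in DKO-moderate, and to 68.0 to 374 CPM in DKO-severe. WT 3 also stood apart in the sums of 5 plasma cell genes (89.1 CPM, other WT at most 1.86) and 6 monocyte and macrophage genes (184 CPM, other WT at most 16.5). In DKO-severe these sums were 51.2 to 198 and 88.3 to 480 CPM, and that of 6 erythroid genes was 11.9 to 46.7 CPM, beside 0.718 to 20.1 CPM in WT. In DKO-moderate the 3 sums were at most 26.1, 58.0, and 11.7 CPM. The part of these cells in the differences of the 8 genes was examined only through neutrophil and B cell terms in the fit. These terms were the mean log2 CPM of each list in a library. The neutrophil mean was -0.594 or higher in every DKO-severe library and at most -1.31 in the other groups. Neutrophil level and DKO-severe therefore cannot be fully told apart in these fits. Reads of Y-linked genes were near 0 and *Xist* reads were abundant in WT 2, DKO-moderate 2, DKO-moderate 4, and DKO-severe 3, so each group held mice of both sexes. DKO-moderate 2 and 4 were also the DKO-moderate libraries with the lower sums of 7 naive T cell genes, 2510 and 2460 CPM, where DKO-moderate 1 and 3 had 3680 and 3920 CPM. With DKO-severe 3 and 4 as the only DKO-severe libraries, edgeR called 5, 2, and 4 of the 8 genes in the 3 comparisons, beside 42.3%, 18.2%, and 13.5% of all genes in the same fits. In only the libraries with Y-linked reads it called 5, 0 (1 at an unadjusted p under 0.05), and 3, beside 46.6%, 2.48%, and 21.2% of all genes. Both subsets were chosen after the values had been seen. In bulk RNA, fewer cells of a type and less RNA per cell cannot be told apart.

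The 300-base windows around the transcription starts (250 bases before to 50 after) are shown for the genes with the widest differences, *Tet1* and *Uhrf1*, with *Tet3*, which fell alongside *Tet1*, and *Dnmt1*, whose protein acts with UHRF1. They come from RefSeq (GRCm38.p6), read 5′ to 3′ on the strand of the gene, and matched all 8 genes with 13 windows. Capitals mark matches to the E2F octamers TTTCCCGC, TTTCGCGC, TTTGCCGC, and TTTGGCGC on either strand. For *Uhrf1* and *Dnmt1*, only the window that holds a match is printed. The *Uhrf1* window is the downstream one of 2 at chr17:56304063-56304362 (+), the *Dnmt1* window the last of 3 at chr9:20952574-20952873 (-), and the single windows of *Tet1* and *Tet3* are at chr10:62887275-62887574 (-) and chr6:83441629-83441928 (-).
Uhrf1: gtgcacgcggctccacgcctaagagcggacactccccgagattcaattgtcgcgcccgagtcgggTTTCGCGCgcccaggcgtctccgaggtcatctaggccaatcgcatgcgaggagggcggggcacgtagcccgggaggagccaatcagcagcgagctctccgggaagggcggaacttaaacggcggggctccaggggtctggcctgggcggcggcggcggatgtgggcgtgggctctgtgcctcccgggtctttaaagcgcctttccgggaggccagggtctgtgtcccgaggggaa
Dnmt1: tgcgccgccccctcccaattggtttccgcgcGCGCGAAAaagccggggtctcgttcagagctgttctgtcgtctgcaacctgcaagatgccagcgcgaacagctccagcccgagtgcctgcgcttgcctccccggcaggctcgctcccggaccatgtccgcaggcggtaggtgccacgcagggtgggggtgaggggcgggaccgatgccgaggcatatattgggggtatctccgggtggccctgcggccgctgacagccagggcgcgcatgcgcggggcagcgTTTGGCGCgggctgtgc
Tet1: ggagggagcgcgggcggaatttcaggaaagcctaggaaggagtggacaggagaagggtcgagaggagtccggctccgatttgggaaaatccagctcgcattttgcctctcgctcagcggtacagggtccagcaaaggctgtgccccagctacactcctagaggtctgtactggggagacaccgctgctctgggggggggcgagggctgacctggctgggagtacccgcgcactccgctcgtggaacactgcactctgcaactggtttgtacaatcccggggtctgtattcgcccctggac
Tet3: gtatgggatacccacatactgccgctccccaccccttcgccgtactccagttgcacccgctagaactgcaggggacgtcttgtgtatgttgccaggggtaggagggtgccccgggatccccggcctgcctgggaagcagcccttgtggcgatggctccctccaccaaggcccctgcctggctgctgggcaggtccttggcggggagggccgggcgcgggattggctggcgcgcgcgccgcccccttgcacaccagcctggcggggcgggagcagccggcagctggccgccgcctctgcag

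An octamer was present in 2 of the 13 windows, those of *Uhrf1* and *Dnmt1* printed here, and in 2.26% of the 32851 windows of all genes. *Uhrf1* had 1 match, beginning 185 bases before the start, and *Dnmt1* had 2, beginning 219 bases before and 33 bases after it. These windows of *Uhrf1* and *Dnmt1* held 33 CpG dinucleotides each, more than 91.4% of all windows. The share of 2.26% was not restricted to windows as rich in CpG. A match is a string of letters, and no binding was measured here. *Uhrf1* rose in both DKO groups and *Dnmt1* did not pass the test in any comparison. The *Tet2* window held more CpG dinucleotides than 99.8% of all windows, 57 against a median of 7, where *Tet1* held 17 and *Tet3* 22.

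*Tet1* had the largest fold change of the 8 genes in DKO-severe against WT and against DKO-moderate. It lies at chr10:62804570-62908996 on the minus strand (GRCm38, ENSMUSG00000047146). *Tet1* was at 39.7, 46.0, 42.3, and 38.5 CPM in WT 1 to 4, at 23.0, 12.5, 23.8, and 9.99 CPM in DKO-moderate 1 to 4, and at 2.04, 6.91, 5.09, and 5.94 CPM in DKO-severe 1 to 4. No library of one group overlapped with another group, and the order was WT, DKO-moderate, DKO-severe. Groups without overlap were found for 51.9% of all genes in DKO-severe against WT, 24.8% in DKO-moderate against WT, and 21.3% in DKO-severe against DKO-moderate. The mean level in DKO-severe was 12% of that in WT, and in DKO-moderate 41.5%.

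*Tet1* fell by 3.06 on the log2 scale in DKO-severe against WT (SE 0.36, n = 4 per group, edgeR adjusted p = 3.93e-05), which is 8.31-fold lower, and 0.998% of all tested genes had a lower log2 fold change. The reads behind the low values numbered 63, 227, 214, and 248 in DKO-severe 1 to 4, against 1382 to 1472 in WT. DKO-severe 1, with the lowest *Tet1* level, was also the library with the highest neutrophil sum. DKO-severe 2, with the next highest neutrophil sum, had the highest *Tet1* level of its group. With the neutrophil and B cell terms in the fit, *Tet1* was at -2.11 on the log2 scale (edgeR adjusted p = 0.0228). That fit cannot fully separate the neutrophil level from DKO-severe. With DKO-severe 3 and 4 alone it was -2.88 (edgeR adjusted p = 0.000162).

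In DKO-moderate, *Tet1* fell by 1.27 on the log2 scale against WT (SE 0.34, edgeR adjusted p = 0.023). The 2 DKO-moderate libraries with *Xist* reads were lower than the 2 with Y-linked reads, 12.5 and 9.99 CPM beside 23.0 and 23.8 CPM. In only the libraries with Y-linked reads (3 WT, 2 DKO-moderate, 3 DKO-severe), *Tet1* in DKO-moderate was at a log2 fold change of -0.79 that did not pass the edgeR test (adjusted p = 0.367), and none of the 8 genes passed there in edgeR, with 1 at an unadjusted p under 0.05. The call was also lost without WT 1 (adjusted p = 0.052), WT 2 (0.0616), DKO-moderate 2 (0.0714), or DKO-moderate 4 (0.0519) in edgeR. Between DKO-severe and DKO-moderate, *Tet1* was lower by 1.79 on the log2 scale (log2 fold change -1.79, SE 0.35, edgeR adjusted p = 0.00669), and in only the libraries with Y-linked reads it was at -2.19 (edgeR adjusted p = 0.0144).

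*Tet3*, the most highly expressed TET gene per length in WT, also fell in DKO-severe. *Tet3* carries floxed alleles in the DKO mice, and the part of their deletion in its lower count was not tested. It lies at chr6:83362373-83459084 on the minus strand (ENSMUSG00000034832). *Tet3* was at 167, 196, 210.4, and 207 CPM in WT 1 to 4, at 168, 109, 185, and 90.3 CPM in DKO-moderate 1 to 4, and at 87.8, 99.2, 102, and 94.4 CPM in DKO-severe 1 to 4. The DKO-severe libraries lay close together and below all WT libraries. DKO-moderate 1 and 3 were within the range of WT, DKO-moderate 4 was within that of DKO-severe, and DKO-moderate 2 was just above it.

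In DKO-severe, *Tet3* fell by 1.03 on the log2 scale against WT (log2 fold change -1.03, SE 0.19, edgeR adjusted p = 0.000859), to 49.1% of the WT mean. In DKO-moderate against WT its log2 fold change was -0.50 (95% interval -0.92 to -0.09), which did not pass the edgeR test (adjusted p = 0.0902) but passed in DESeq2 (adjusted p = 0.0426). It passed too when DKO-moderate 3 was left out (-0.67, edgeR adjusted p = 0.0243). DKO-severe against DKO-moderate gave a log2 fold change of -0.52 (95% interval -0.94 to -0.11, edgeR adjusted p = 0.0705). The last difference passed with limma voom (-0.72, adjusted p = 0.00358) and in only the libraries with Y-linked reads (-0.87, edgeR adjusted p = 0.0088). With the neutrophil and B cell terms, *Tet3* in DKO-severe against WT was at -0.64 and lost its call (edgeR adjusted p = 0.183).

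*Tet2*, the other gene carrying floxed alleles in the DKO mice, did not pass the test in any comparison. It lies at chr3:133463679-133545139 on the minus strand (ENSMUSG00000040943). *Tet2* was at 43.3, 53.9, 48.6, and 62.2 CPM in WT 1 to 4, at 53.0, 55.6, 57.8, and 34.8 CPM in DKO-moderate 1 to 4, and at 56.7, 65.8, 57.3, and 63.2 CPM in DKO-severe 1 to 4. The groups overlapped throughout, and DKO-moderate 4 was the lowest library. DKO-severe against WT gave a log2 fold change of 0.22 (95% interval -0.11 to 0.56, edgeR adjusted p = 0.234). DKO-moderate against WT gave -0.05 (95% interval -0.38 to 0.28, edgeR adjusted p = 0.857), and DKO-severe against DKO-moderate gave 0.27 (95% interval -0.06 to 0.60, edgeR adjusted p = 0.214). Counts per gene sum the reads of all exons, and the loss of floxed exons of *Tet2* or *Tet3* could not be checked from them. By qPCR, the authors found *Tet2* lower in T follicular helper (Tfh) cells of DKO-moderate mice and undetectable in those of DKO-severe mice. Their fate mapping marked almost all FOXP3-negative Tfh cells of DKO-severe mice as former Treg cells. Such Tfh cells are a part of the cells sequenced here, so the *Tet2* counts do not show that the gene is intact.

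**Figure D1:**
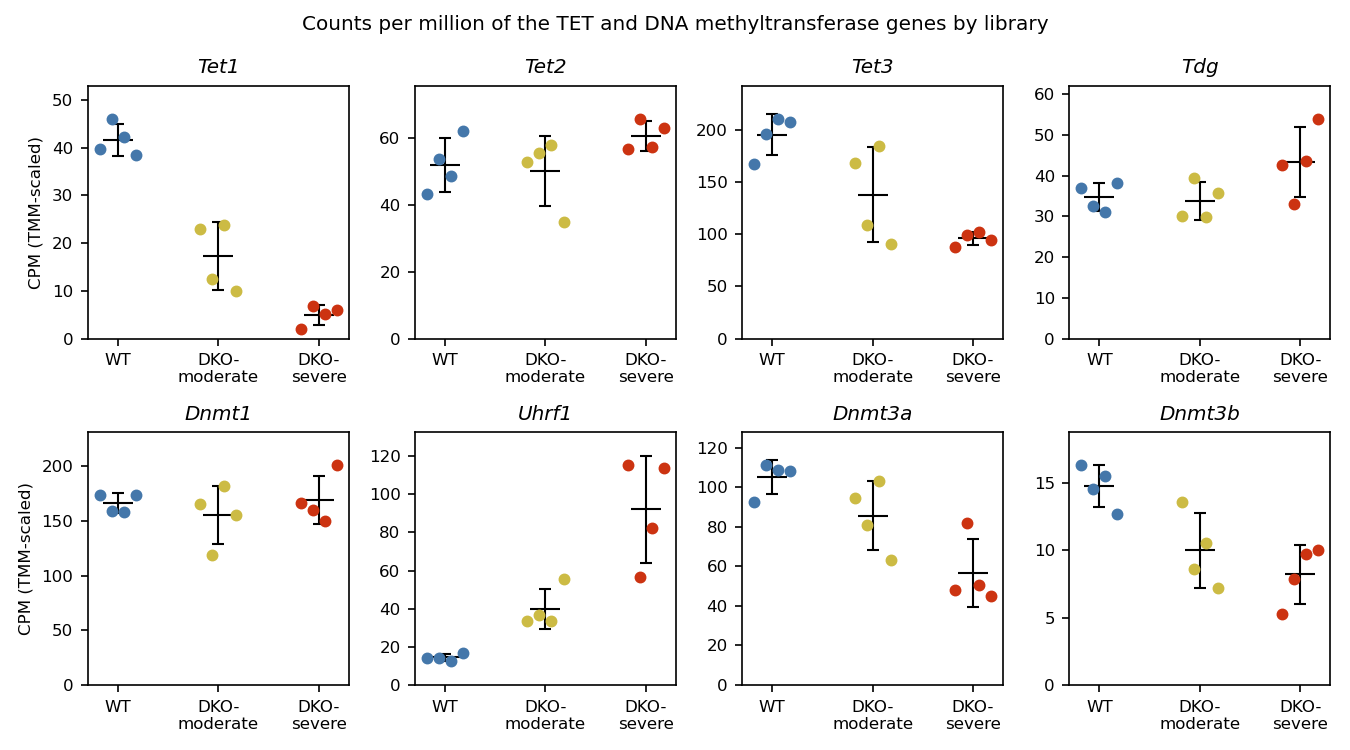
CPM (y axis, TMM-scaled, linear from 0) of the 8 genes in WT, DKO-moderate, and DKO-severe, with 1 point per library in replicate order and bars for the mean and SD of 4 libraries. *Tet1* separates all 3 groups downwards and *Uhrf1* upwards, while *Tet2* and *Dnmt1* overlap across the groups.

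The makeup of the TET transcripts shifted with these values. The 3 TET genes summed to 250.4 to 308 CPM in WT, 135 to 266 CPM in DKO-moderate, and 146 to 172 CPM in DKO-severe. *Tet1* made up 12.5% to 15.9% of this sum in WT, 7.04% to 9.43% in DKO-moderate, and 1.40% to 4.02% in DKO-severe. *Tet2* made up 16.1% to 20.2%, 21.7% to 31.4%, and 34.7% to 38.7% in the same order of groups. The share of *Tet3* was 66.2% to 69.8% in WT and 57.7% to 62.2% in DKO-severe, with DKO-moderate at 61.5% to 69.4%. For *Tet1* and *Tet2* the shares of the 3 groups did not overlap.

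The ratio of *Tet3* to *Tet2* reads within a library does not depend on the scaling between libraries. It was 3.34 to 4.33 in WT, 1.96 to 3.19 in DKO-moderate, and 1.49 to 1.79 in DKO-severe. The ratio of *Tet1* to *Tet2* was 0.620 to 0.917 in WT, 0.224 to 0.435 in DKO-moderate, and 0.0361 to 0.105 in DKO-severe. Both ratios ordered the 3 groups without overlap. *Tet2* and *Tet3* carry floxed alleles in the DKO mice, and the part of their deletion in these shares and ratios was not tested.

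**Figure D2:**
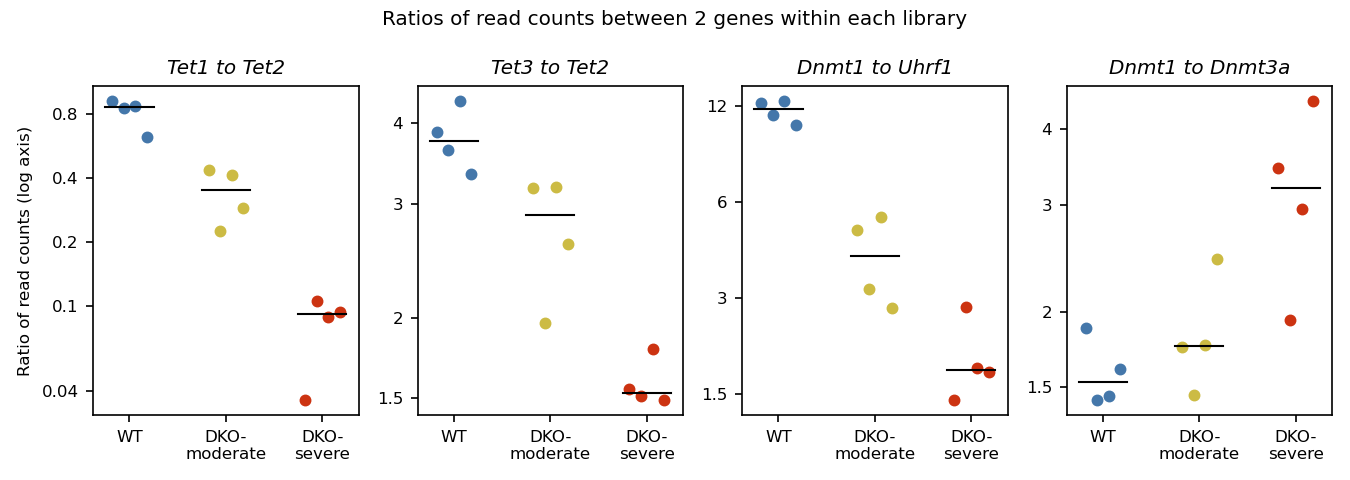
Ratios of read counts between pairs of the genes within each library (y axis, log scale), with 1 point per library and a line at the median of 4 libraries per group. *Tet1* to *Tet2* and *Tet3* to *Tet2* separate all 3 groups, and *Dnmt1* to *Uhrf1* separates WT from both DKO groups. *Dnmt1* to *Dnmt3a* lies above WT in DKO-severe but overlaps with DKO-moderate (DKO-severe 2 at 1.94, DKO-moderate 4 at 2.44).

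*Tdg*, the glycosylase downstream of the TET enzymes, lies at chr10:82629828-82650799 on the plus strand (ENSMUSG00000034674). *Tdg* was at 37.0, 32.5, 31.1, and 38.2 CPM in WT 1 to 4, at 30.1, 39.5, 29.8, and 35.7 CPM in DKO-moderate 1 to 4, and at 42.7, 33.03, 43.7, and 53.9 CPM in DKO-severe 1 to 4. DKO-severe 1, 3, and 4 were above every WT library, and DKO-severe 2 was among them. The log2 fold change of DKO-severe against WT was 0.32 (95% interval 0.005 to 0.635) and did not pass in edgeR (adjusted p = 0.0813), but passed in DESeq2 (0.40, adjusted p = 0.0244) and in limma voom (0.34, adjusted p = 0.027), and in edgeR without DKO-severe 2 (0.46, adjusted p = 0.0154). In DKO-moderate against WT it was -0.04 (95% interval -0.36 to 0.27, edgeR adjusted p = 0.873). DKO-severe against DKO-moderate gave 0.36 (95% interval 0.05 to 0.68, edgeR adjusted p = 0.0955), which passed in DESeq2 (0.43, adjusted p = 0.0285) and in limma voom (0.49, adjusted p = 0.011). *Tdg* has processed copies elsewhere in the genome, and reads with more than 1 position had been left out, so its count is uncertain.

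*Uhrf1* showed the largest rise of the 8 genes in all 3 comparisons. It lies at chr17:56303321-56323486 on the plus strand (ENSMUSG00000001228). *Uhrf1* was at 14.3, 14.2, 12.7, and 16.8 CPM in WT 1 to 4, at 33.7, 36.9, 33.8, and 55.5 CPM in DKO-moderate 1 to 4, and at 115, 56.9, 82.4, and 114 CPM in DKO-severe 1 to 4. All DKO libraries were above all WT libraries, and the lowest DKO-severe library was just above the highest DKO-moderate library.

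*Uhrf1* rose 6.35-fold in DKO-severe against WT (log2 fold change 2.67, SE 0.24, edgeR adjusted p = 8.23e-06) and 2.75-fold in DKO-moderate (log2 fold change 1.46, SE 0.23, edgeR adjusted p = 0.00135). DKO-severe exceeded DKO-moderate 2.30-fold (log2 fold change 1.20, SE 0.22, edgeR adjusted p = 0.00564). With the neutrophil and B cell terms the rise in DKO-severe against WT was 2.63 on the log2 scale and was still called (edgeR adjusted p = 0.00104), and the difference from DKO-moderate was 1.26 and was not (edgeR adjusted p = 0.0724). In only the libraries with Y-linked reads the DKO-moderate value against WT was 1.20 and did not pass (edgeR adjusted p = 0.0692), whereas DKO-severe against DKO-moderate was 1.54 (edgeR adjusted p = 0.015).

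*Dnmt1*, the partner of UHRF1 in maintenance methylation, differed little between the groups. It lies at chr9:20907209-20959888 on the minus strand (ENSMUSG00000004099). *Dnmt1* was at 174, 159, 158, and 174 CPM in WT 1 to 4, at 165, 119, 182, and 155 CPM in DKO-moderate 1 to 4, and at 166, 160, 150, and 200.5 CPM in DKO-severe 1 to 4. The groups overlapped, with DKO-moderate 2 the lowest and DKO-severe 4 the highest library. The log2 fold change was 0.03 in DKO-severe against WT (95% interval -0.25 to 0.30, edgeR adjusted p = 0.875) and -0.10 in DKO-moderate against WT (95% interval -0.37 to 0.18, edgeR adjusted p = 0.625). DKO-severe against DKO-moderate gave 0.12 (95% interval -0.15 to 0.40, edgeR adjusted p = 0.501). The ratio of *Dnmt1* to *Uhrf1* reads was 10.4 to 12.4 in WT, 2.79 to 5.38 in DKO-moderate, and 1.44 to 2.81 in DKO-severe, so both DKO groups lay below WT and overlapped with each other.

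Both de novo methyltransferases fell in DKO-severe. *Dnmt3a* lies at chr12:3806007-3914443 on the plus strand (ENSMUSG00000020661), and reads of its antisense neighbor *Dnmt3aos* were kept apart by the stranded counting. *Dnmt3a* was at 92.5, 111, 109, and 108 CPM in WT 1 to 4, at 94.7, 81.0, 103, and 63.4 CPM in DKO-moderate 1 to 4, and at 48.2, 82.2, 50.7, and 45.0 CPM in DKO-severe 1 to 4. DKO-severe was below WT in every library, with DKO-severe 2 apart from the other 3 and inside the range of DKO-moderate.

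*Dnmt3a* fell by 0.90 on the log2 scale in DKO-severe against WT (log2 fold change -0.90, SE 0.19, edgeR adjusted p = 0.00213), to 53.8% of the WT mean. With the neutrophil and B cell terms it was at -1.04 with an adjusted p of 0.0595 in edgeR, and with DKO-severe 3 and 4 alone at -1.10 (edgeR adjusted p = 0.000789). DKO-moderate against WT gave -0.30 (95% interval -0.71 to 0.12, edgeR adjusted p = 0.304). DKO-severe against DKO-moderate gave -0.60 (SE 0.19, edgeR adjusted p = 0.0449), a call that was lost in edgeR when any of 10 of the 12 libraries was left out, all but DKO-moderate 4 and DKO-severe 2 (adjusted p up to 0.149). It was also lost in edgeR with DESeq2's size factors (adjusted p = 0.0763), with library size alone (0.0903), and with only the groups compared (0.101).

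*Dnmt3b* lies at chr2:153649450-153687730 on the plus strand (ENSMUSG00000027478), with the antisense gene *Dnmt3bos* on the other strand. *Dnmt3b* was at 16.3, 14.5, 15.5, and 12.7 CPM in WT 1 to 4, at 13.6, 8.57, 10.6, and 7.23 CPM in DKO-moderate 1 to 4, and at 5.26, 7.88, 9.71, and 10 CPM in DKO-severe 1 to 4. DKO-severe was below WT in every library, and DKO-moderate 1 was within the range of WT. *Dnmt3b* fell by 0.84 on the log2 scale in DKO-severe against WT (log2 fold change -0.84, SE 0.23, edgeR adjusted p = 0.00888), to 55.7% of the WT mean. The lowest library, DKO-severe 1, had the highest neutrophil sum. With DKO-severe 3 and 4 alone, *Dnmt3b* was at -0.54 and did not pass in edgeR (adjusted p = 0.0881), and with the neutrophil and B cell terms it was at -0.05 (edgeR adjusted p = 0.924). DKO-moderate against WT gave -0.56 (95% interval -1.06 to -0.06, edgeR adjusted p = 0.112) and DKO-severe against DKO-moderate -0.28 (95% interval -0.78 to 0.22, edgeR adjusted p = 0.395).

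**Figure D3:**
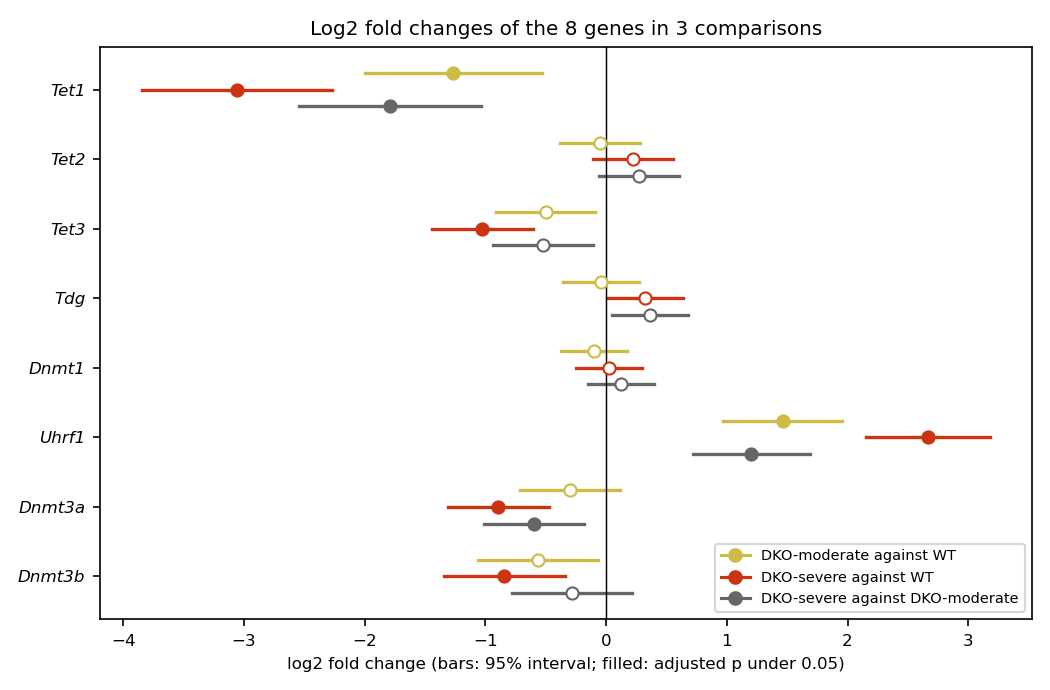
Log2 fold changes (x axis) of the 8 genes (y axis) in the 3 comparisons, with the 95% interval as a bar and a filled point where the adjusted p was under 0.05 in edgeR. *Tet1* and *Uhrf1* are filled in all 3 comparisons on opposite sides of 0, and *Tet2*, *Tdg*, and *Dnmt1* are open in all 3.

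Per kilobase of exon, *Dnmt1* was the most abundant of the 8 transcripts in every group, with 22.5 ± 1.21 CPM per kb in WT (SD, n = 4). DKO-moderate had 21.0 ± 3.62 and DKO-severe 22.9 ± 2.99 CPM per kb (SD, n = 4). *Tet1* was the least abundant in every group, at 2.69 ± 0.214, 1.12 ± 0.459, and 0.323 ± 0.136 CPM per kb (SD, n = 4). In WT, *Tet3* followed *Dnmt1* at 11.7 ± 1.17 CPM per kb, then *Tdg* at 6.46 and *Dnmt3a* at 6.32, which did not differ beyond their spread. The remaining WT levels, *Uhrf1* at 3.41, *Tet2* at 3.08, *Dnmt3b* at 2.89, and *Tet1* at 2.69 CPM per kb, lay within or close to the spread of their neighbors. In DKO-severe, *Uhrf1* stood second at 21.6 ± 6.56 CPM per kb (SD, n = 4), within its spread of *Dnmt1*. There *Tet3* was at 5.75 and *Tet2* at 3.60 CPM per kb. The order of neighbors depends on the exon length used, and with the longest transcript *Tet2* ranked 5 in place of 6 in WT.

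**Figure D4:**
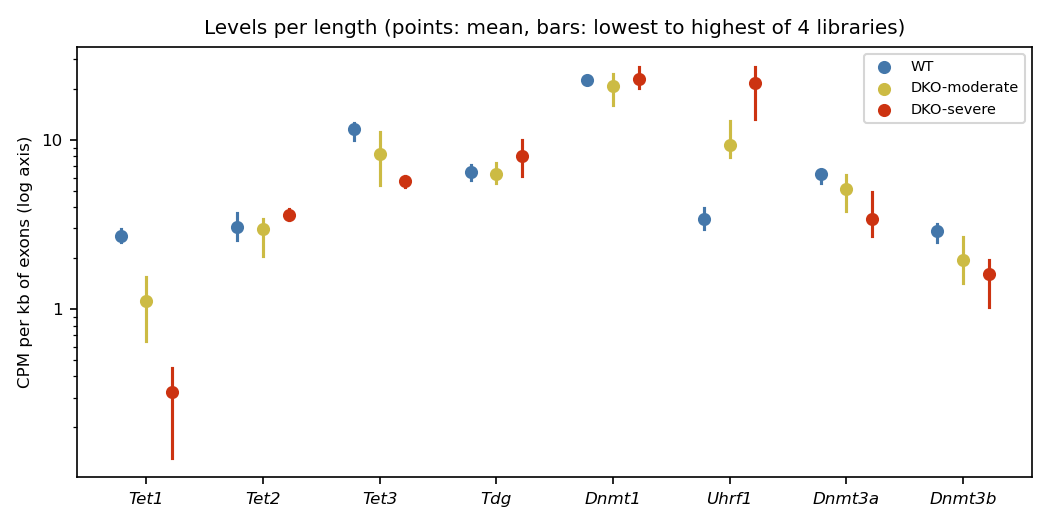
Levels in CPM per kilobase of exon (y axis, log scale) of the 8 genes in each group, with a point at the mean and a bar from the lowest to the highest of 4 libraries. *Dnmt1* is highest and *Tet1* lowest in every group, and *Uhrf1* moves from 3.41 in WT to 21.6 CPM per kb in DKO-severe.

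The other genes of the pathway were read from 5 lists with 41 genes tested of 43. In DKO-severe against WT 11 were higher, 11 were lower, and 19 did not pass, which is 53.7% called beside 52.6% of all genes. In DKO-moderate against WT 7 were higher and 4 lower, 26.8% beside 17.1% of all genes, and in DKO-severe against DKO-moderate 4 were higher and 4 lower, 19.5% beside 20.1%.

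Of 6 partners of maintenance methylation, 4 were higher and 2 lower in DKO-severe against WT, beside 26.6% and 25.9% of all genes. In DKO-moderate against WT 3 were higher, beside 12.3% of all genes. *Hells*, the chromatin remodeler that DNA methylation needs in dense chromatin, rose from 13.9 ± 1.54 CPM in WT to 50.6 ± 11.1 CPM in DKO-severe (SD, n = 4, log2 fold change 1.86, edgeR adjusted p = 7.97e-06). *Cdca7*, which recruits HELLS, rose by 1.37 on the log2 scale (edgeR adjusted p = 6.55e-05), and *Lig1*, the replicative DNA ligase that UHRF1 binds, rose by 2.10 (edgeR adjusted p = 2.25e-05). *Usp7*, a deubiquitinase that stabilizes UHRF1 and DNMT1, fell from 324 ± 13.6 to 213 ± 7.25 CPM (SD, n = 4, log2 fold change -0.60, edgeR adjusted p = 0.00235).

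Of 9 readers of methylated DNA, 2 were lower and none was higher in DKO-severe against WT by edgeR, beside 25.9% and 26.6% of all genes. Among the lower was *Mbd2*, a methyl-CpG binding protein, at a log2 fold change of -0.47 (edgeR adjusted p = 0.00246). *Uhrf2*, the paralog of *Uhrf1*, was at 103 ± 5.05 CPM in WT and 106 ± 6.11 CPM in DKO-severe (SD, n = 4, log2 fold change 0.05, 95% interval -0.23 to 0.32, edgeR adjusted p = 0.775). *Mbd3* gave -0.12 (95% interval -0.33 to 0.09, edgeR adjusted p = 0.315).

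Of 9 tested genes that bind TET proteins or supply their cofactors, 3 were higher and 3 lower in DKO-severe against WT. The shares over all genes were 26.6% and 25.9%. *Idh2*, the mitochondrial enzyme that makes the TET cofactor 2-oxoglutarate, fell from 83.7 ± 11.5 to 36.3 ± 4.29 CPM (SD, n = 4, log2 fold change -1.21, edgeR adjusted p = 1.59e-05) and was also lower in DKO-moderate (-0.67, edgeR adjusted p = 0.0033). *Idh3a*, a subunit of the mitochondrial NAD-dependent isocitrate dehydrogenase, rose by 0.63 on the log2 scale (edgeR adjusted p = 7.78e-05). *Gadd45a*, a stress-induced gene linked to active demethylation, fell by 1.54 on the log2 scale (log2 fold change -1.54, edgeR adjusted p = 7.62e-05). *Cxxc5*, a CXXC zinc finger protein that binds TET2, rose from 5.29 ± 2.50 to 38.6 ± 23.0 CPM (SD, n = 4, log2 fold change 2.86, edgeR adjusted p = 0.000488), with a wide range of 13.1 to 68.1 CPM in DKO-severe.

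Of 11 genes of base excision repair, 3 were higher and 1 was lower in DKO-severe against WT, beside 26.6% and 25.9% of all genes. *Neil3*, a glycosylase of dividing cells, rose from 1.52 ± 0.194 to 16.5 ± 5.63 CPM (SD, n = 4, log2 fold change 3.43, edgeR adjusted p = 4.86e-06). *Polb*, the repair polymerase, was lower at -0.37 (edgeR adjusted p = 0.00499), and *Parp1* and *Ung* were higher at 0.22 (edgeR adjusted p = 0.0274) and 0.51 (edgeR adjusted p = 0.0451) on the log2 scale. Of 7 genes that supply S-adenosylmethionine, the methyl donor of the DNA methyltransferases, 1 was higher and 3 were lower in DKO-severe against WT. The same shares of all genes, 26.6% and 25.9%, stand beside these counts. *Ahcy*, which clears the inhibitory product S-adenosylhomocysteine, rose by 0.79 on the log2 scale (edgeR adjusted p = 0.000106). Those lower included *Mat2b* (-0.49, edgeR adjusted p = 0.000329) and *Mtr* (-0.69, edgeR adjusted p = 0.000809), and *Mat2a*, the synthetase itself, was at -0.08 (95% interval -0.42 to 0.26, edgeR adjusted p = 0.686).

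**Figure D5:**
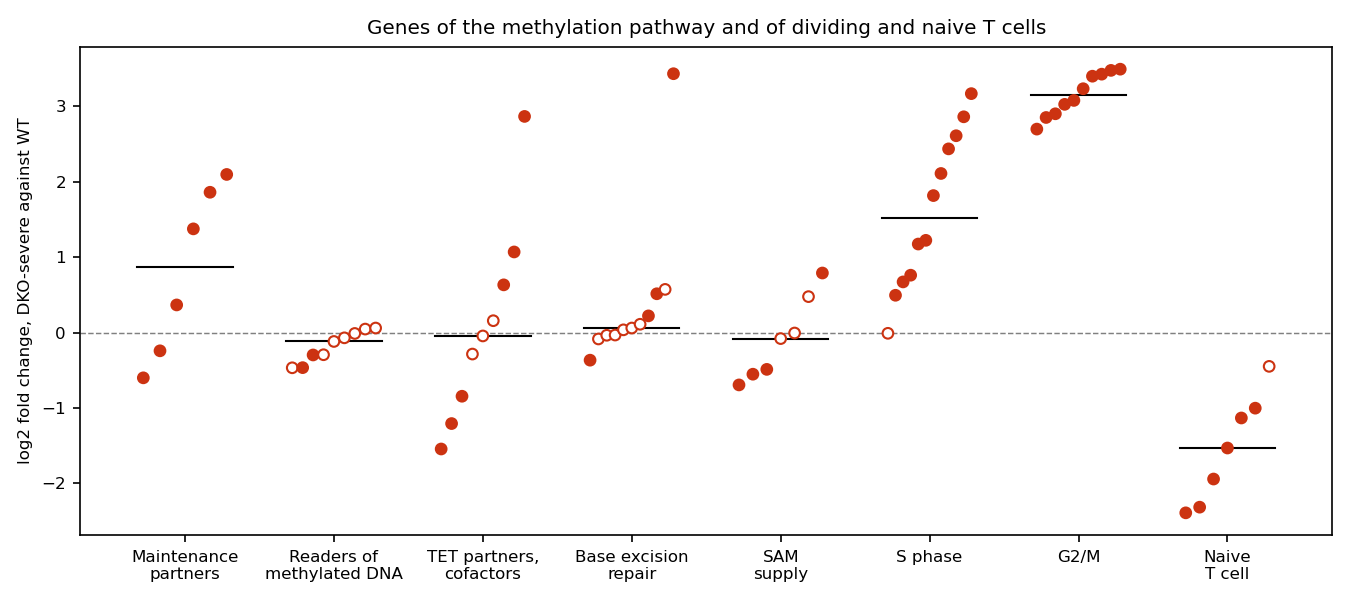
Log2 fold changes of DKO-severe against WT (y axis) for each gene of 8 lists (x axis), filled where the adjusted p was under 0.05 in edgeR, with a line at the median of each list. The 10 G2/M genes all lie above 0 with a median of 3.15, and the 6 maintenance partners have a median of 0.87. The pathway lists of readers, TET partners, base excision repair, and S-adenosylmethionine (SAM) supply have medians between -0.12 and 0.06.

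Genes of dividing cells differed alongside *Uhrf1*. Of 12 S phase genes 11 were higher in DKO-severe against WT (median log2 fold change of the list 1.52) and 7 in DKO-moderate (0.84). For G2/M, 10 of 10 genes were higher in all 3 comparisons. Of all genes, 26.6% were higher in DKO-severe against WT, 12.3% in DKO-moderate against WT, and 9.41% in DKO-severe against DKO-moderate. The G2/M list summed to 86.8 to 159 CPM in WT, to 251, 280, 341, and 447 CPM in DKO-moderate 1 to 4, and to 991, 557, 824, and 1460 CPM in DKO-severe 1 to 4. DKO-moderate 4 had the highest *Uhrf1* level and the highest G2/M sum of its group, and DKO-severe 2 the lowest of both in its group. Within DKO-severe, however, DKO-severe 1 had the highest *Uhrf1* level and DKO-severe 4 the highest G2/M sum. The groups did not overlap in this sum, so group and G2/M level cannot be told apart here. With the G2/M level as a term in the fit, *Uhrf1* was at 0.64 (edgeR adjusted p = 0.508) and *Tet1* at -1.70 (edgeR adjusted p = 0.499) on the log2 scale in DKO-severe against WT, and none of the 8 genes was called by edgeR there, with 0 at an unadjusted p under 0.05. *Dnmt1* was at a log2 fold change of 0.03 in the comparison where 11 of 12 S phase genes rose.

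Genes of naive T cells differed alongside *Tet1*, *Tet3*, and *Dnmt3a*. Of 7 naive genes 6 were lower in DKO-severe against WT (median log2 fold change of the list -1.53), beside 25.9% of all genes. In DKO-moderate against WT 3 were lower, and in DKO-severe against DKO-moderate 4, beside 4.74% and 10.7% of all genes. The list summed to 4400 to 5100 CPM in WT and to 1660 to 2230 CPM in DKO-severe. In DKO-moderate 2 and 4, with the lower naive sums, *Tet1*, *Tet3*, *Dnmt3a*, and *Dnmt3b* were each lower than in DKO-moderate 1 and 3. The part of the naive sum in these differences was not tested. A list of 6 genes of Treg cells was also measured, since the sort on YFP removes cells that express FOXP3 but not former Treg cells. In DKO-severe against WT, 4 of the 6 were higher by edgeR (*Il2ra* and *Ctla4*, which activation also induces, *Ikzf2*, and *Nrp1*) and 2 were lower, *Foxp3* at -2.11 on the log2 scale (edgeR adjusted p = 0.0205) and *Ikzf4* at -0.77 (edgeR adjusted p = 0.00696). Over all genes, 26.6% were higher and 25.9% lower in that comparison. The *Foxp3* reads were few in these sorted cells, 35 to 96 per WT library and 4 to 35 per DKO-severe library. The list summed to 86.5 to 201 CPM in WT, 298 to 610 CPM in DKO-moderate, and 680 to 795 CPM in DKO-severe, and its part in the differences of the 8 genes was not tested.

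The genes with the profile across libraries most like each of the 8 were found by Pearson correlation of log2 CPM over the 12 libraries, among 10509 genes, as a description. The libraries fall into 3 groups that differ in many genes, which alone gives high values. For *Tet1* the nearest were *1700025G04Rik* (r = 0.994), *Plcxd2* (0.994), and *Ppm1h* (0.993), and for *Uhrf1* they were *Trip13* (0.995), *Cdc6* (0.995), and *Ncapg* (0.993). *Tet3* was nearest to *Dyrk1a* (0.993), *Dnmt3a* to *Pip4k2a* (0.977), *Dnmt3b* to *Plekha1* (0.966), *Tdg* to *Bend3* (0.937), and *Tet2* to *Trak1* (0.936). *Dnmt1* had the lowest value for its nearest gene, *Ipo11*, at 0.874.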

How the data were processed

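RNA sequencing of 12 libraries, 4 in each of the 3 groups that the labels name, was analysed. The deposited values are raw counts per gene. The authors used a directional library kit and mapped to mm10 using STAR 2.7.11, where a read with more than 1 position was dropped, and htseq-count (reverse-stranded) then gave the counts. The annotation is not given in the sources used here. Gene positions and exon lengths were taken from GENCODE (GRCm38) by symbol.

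Genes with at least 10 reads summed over a condition were tested with edgeR 4.0.16 (quasi-likelihood, TMM) in R 4.3.3 over all 12 libraries, and p-values were adjusted by Benjamini-Hochberg across the whole table and called under 0.05. Intervals are at 95%. Levels are TMM-scaled CPM (prior count 2 on the log2 scale). For the profile comparison, genes had a mean of at least 5 CPM. Total reads on genes are 29254260 or more per library, and the spread between mice, 4 per group, limits the precision. The 8 genes were chosen by name, and they and the lists were chosen with earlier results of these data known. Named pathway genes are at most 4 per list with the smallest adjusted p in DKO-severe against WT, plus *Mbd2*, *Mbd3*, *Hells*, *Uhrf2*, *Mat2a*, and *Ahcy*. Results of some named genes are not reported here. 4 list genes were read under an older symbol, and 1, *Trac*, was not matched. Alternatives were DESeq2 1.42.0, limma voom (limma 3.58.1), other scalings and filters, only the groups compared, a replicate block, terms for Y-linked, neutrophil and B cell, or G2/M genes, and leaving out each library, 1 at a time. Each term was the mean log2 CPM of its list in a library. The tests were checked on simulated data with 200 changed genes. Figures were drawn with matplotlib 3.10.9. Other assays were not analysed here.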

Additional observations from a re-analysis of the deposited data

Results flagged for a closer look

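Of the 24 sets of 4 libraries (8 genes in 3 groups), 3 had 1 library far from the other 3, where chance alone gives about 1 in 20. *Dnmt3a* was at 92.5 CPM in WT 1, with the other WT libraries at 108 to 111 CPM. In DKO-severe 2, *Dnmt3a* was at 82.2 CPM, with the others at 45.0 to 50.7 CPM. *Uhrf1* was at 55.5 CPM in DKO-moderate 4, with the others at 33.7 to 36.9 CPM.

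The difference of each DKO group from the same WT libraries was called unequal for 3 genes in the edgeR comparison of DKO-severe with DKO-moderate. The log2 fold change was -1.79 for *Tet1* and 1.20 for *Uhrf1*, each in the direction seen against WT. It was -0.60 for *Dnmt3a*, which had not passed in DKO-moderate against WT. This call for *Dnmt3a* was lost in 10 of the 12 edgeR fits without 1 library.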

How the results depend on the processing

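Over 11 alternatives, 222 of 264 values of the 8 genes kept their direction and their side of the threshold, and over the fits without 1 library 261 of 288 did. In DKO-severe against WT, the calls of *Tet1* and *Uhrf1* were lost only with the G2/M term. With that term, which cannot be told apart from the groups, edgeR called 0, 30, and 0 genes in DKO-severe against WT, DKO-moderate against WT, and DKO-severe against DKO-moderate, and 0, 0, and 0 of the 8 (1954 and 2112 genes at an unadjusted p under 0.05 in the first and last, and 0, 1, and 0 of the 8). Log2 fold changes turned there to -0.43 for *Dnmt1*, 0.42 for *Dnmt3a*, and -0.67 for *Tdg* in DKO-severe against WT, to 0.10 for *Tet2* and 0.41 for *Dnmt3a* in DKO-moderate against WT, and to -0.091 for *Dnmt1*, 0.002 for *Dnmt3a*, 0.042 for *Dnmt3b*, and -0.10 for *Tdg* in DKO-severe against DKO-moderate. The neutrophil term, too, cannot be fully told apart from DKO-severe. With the neutrophil and B cell terms, 3156 genes and 2 of the 8 were called in DKO-severe against WT, and 218 genes and 0 of the 8 (3 at an unadjusted p under 0.05) in edgeR for DKO-severe against DKO-moderate, where *Dnmt3b* turned to 0.36. Limma voom called 6126 genes and 5 of the 8 in DKO-severe against DKO-moderate. In DKO-moderate against WT, *Tet2* turned to 0.037 with voom and 0.027 with library size alone, and *Tdg* to 0.045 with library size alone. In only the libraries with Y-linked reads, a setting added later, 386 genes and 0 of the 8 were called in DKO-moderate against WT (edgeR, 1 of the 8 at an unadjusted p under 0.05), with *Tet2* at 0.10 and *Dnmt1* at 0.031. With DKO-severe 3 and 4 alone, also added later, 2114 genes were called in DKO-severe against DKO-moderate, and *Dnmt3b* was at 0.02. Apart from the construction of these fits, the cause was not tested.

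Without 1 library, the counts ran from 7253 to 9006, 1616 to 2920, and 1646 to 3670 genes, and from 5 to 6, 1 to 3, and 2 to 4 of the 8, in DKO-severe against WT, DKO-moderate against WT, and DKO-severe against DKO-moderate. The lowest counts of genes came without WT 1 (1616) in DKO-moderate against WT and without DKO-moderate 1 (1646) in DKO-severe against DKO-moderate. Without 1 library, values near 0 changed sign in DKO-moderate against WT for *Tet2* (from -0.127 to 0.088, above 0 without WT 4 at 0.049 and DKO-moderate 4), *Tdg* (from -0.124 to 0.014, above 0 without WT 4 at 0.008, DKO-moderate 1 at 0.011, and DKO-moderate 3), and *Dnmt1* (from -0.183 to 0.011, above 0 without DKO-moderate 2), and in DKO-severe against WT for *Dnmt1* (from -0.035, without DKO-severe 4, to 0.112).

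The replicate numbers were taken as names, since deviations of libraries with the same number did not go together (correlations -0.27 to 0.21, median -0.03, 2 of 12 pairs over 0.1). With the replicate block, 5, 1, and 3 of the 8 were called, with *Tet1* at an adjusted p of 0.0527 in DKO-moderate against WT, and 7794, 2201, and 2321 genes. With library size alone, the median of all genes in DKO-severe against WT was 0.18, and *Tet2*, at 0.41, passed (edgeR adjusted p = 0.0395). Of the calls, 5460 were then higher and 2756 lower in DKO-severe against WT, where TMM gave 4270 and 4158, and 1886 and 1021 in DKO-severe against DKO-moderate, where TMM gave 1509 and 1708 and DESeq2's size factors 1823 and 1237. The lowest count behind a value of the 8 genes was 63 reads, for *Tet1* in DKO-severe 1.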
